A study of Mus musculus with 10 samples.

Results

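T cells from mouse colorectal carcinomas were compared in a pair of sets, one carrying the coreceptor CD4 and one carrying CD8, both chosen to hold transcripts of lymph-node homing or early T cell genes and to lack those of a common effector chemokine. A cell entered if it had at least 300 detected genes, at most 10% mitochondrial UMIs (unique molecular identifiers, 1 per captured transcript), a productive T cell receptor (TCR) beta chain (TRB), no UMI of Ccl5 or Foxp3 and at least 1 UMI of Ccr7 or Lef1. The CD4 side further needed at least 1 UMI of Cd4 and none of Cd8a or Cd8b1, and the CD8 side at least 2 UMIs of Cd8a and Cd8b1 together and none of Cd4. The members were thus chosen by measured UMIs of 7 genes, by quality and by a TCR contig. The rule kept 5340 cells, 23.6% of the 22590 barcodes in the files and 33.0% of the 16169 cells of sufficient quality with a TRB chain. Of these, 4012 were on the CD4 side and 1328 on the CD8 side.

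The cells came from 5 libraries of 5' droplet RNA sequencing, each with a matching TCR library. Untreated tumours gave 2 libraries, treatment with the plant S. chamaejasme (Stellera chamaejasme) gave 1, and tumours given S. chamaejasme plus anti-PD-1, an antibody that blocks a brake on T cells, gave 2 (the combination). All groups shared the tumour, mouse colorectal carcinoma, and no group had the antibody alone. The labels give neither strain, age nor sex, nor whether libraries came from separate or pooled animals, so p-values measure the spread between these samples. Sample titles of the untreated group follow another pattern than the rest, so treatment and a possible batch cannot be told apart. A library gave 262, 547, 597, 1330 and 1276 CD4 cells and 83, 218, 181, 408 and 438 CD8 cells, in the order untreated 1, untreated 2, S. chamaejasme, combination 1 and combination 2, which is kept for every list of 5 values below. There were 2.51 to 3.30 CD4 cells for each CD8 cell in a library, a ratio of the cells that passed the cuts and not of all CD4 and CD8 cells. The selected cells were 24.5%, 30.9%, 20.3%, 40.3% and 41.4% of the cells of sufficient quality with a TRB chain, with both combination libraries above the other 3. UMIs of a library's cells were summed per side, giving 1130831 to 7752099 UMIs on the CD4 side and 410093 to 2754663 on the CD8 side. The median CD4 cell had 3914.5 to 5465 UMIs and the median CD8 cell 4555 to 6179, with CD8 cells deeper in 5 of 5 libraries. Libraries shared 67 to 126 barcodes each with another library. No doublet caller was run, and 4.66% of CD4 and 4.82% of CD8 cells had at least 2 productive TRB chains.

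CD4 and CD8 T cells arise from a common thymic precursor. Cells whose receptor binds peptides on MHC class II keep CD4 under the transcription factor ThPOK, encoded by Zbtb7b, whereas those that bind MHC class I keep CD8 under Runx3. Helper cells then license other immune cells through surface ligands such as CD40 ligand, and CD8 cells become killers that store granule proteins. A T cell that has not met its antigen recirculates through lymph nodes by means of CCR7. The receptor itself is assembled from V, D (beta only) and J segments, and the loop that crosses the junction, complementarity-determining region 3 (CDR3), touches the presented peptide.

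Junction sequences carry one of the differences described further down, the electric charge of CDR3. The 6 junctions printed next were picked, after their values were seen, since they show charged codons well. They came from 16 found with identical bases, V and J segments in several libraries. Beta junctions had to be found in at least 2 libraries and alpha junctions in at least 3. None of these 16 came from barcodes that libraries shared. They run 5' to 3' from the conserved cysteine codon to the conserved phenylalanine codon, as in the deposited contigs. In the first set, capitals mark codons of the basic residues lysine and arginine.
TRBV20 with TRBJ2-5, 2 CD4 cells in 2 libraries: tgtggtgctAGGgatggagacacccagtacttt
TRBV20 with TRBJ1-1, 2 CD4 cells in 2 libraries: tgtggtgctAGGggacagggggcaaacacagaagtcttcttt
TRBV5 with TRBJ2-5, 3 CD4 cells in 2 libraries: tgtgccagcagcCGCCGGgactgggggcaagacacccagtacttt
In the second set, capitals mark codons of the acidic residues aspartate and glutamate.
TRBV12-2+TRBV13-2 with TRBJ2-5, 5 CD4 cells in 2 libraries: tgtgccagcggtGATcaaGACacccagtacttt
TRBV5 with TRBJ1-1, 2 CD4 cells in 2 libraries: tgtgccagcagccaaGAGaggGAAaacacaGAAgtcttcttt
TRAV13-1 with TRAJ49, 3 CD8 cells in 3 libraries: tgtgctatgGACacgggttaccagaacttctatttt
The first 12 bases differ between V segments. The most frequent start had an arginine codon in 56.1% of the 471 cells with TRBV20 and no codon of a charged residue in 73.3% of the 281 cells with TRBV29. Capitals again mark basic codons.
TRBV20 start: tgtggtgctAGG
TRBV29 start: tgtgctagcagt

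The genes of the rule describe the choice and are no result. Cd4 stood at 279 ± 17.6 CPM on the CD4 side and at 0 on the CD8 side (mean ± SD, n = 5 libraries). CPM are UMIs of a gene relative to all UMIs of that side in a library. Those totals were multiplied by normalization factors of 0.913 to 1.07 (TMM in edgeR). Values given for pooled cells were not scaled in this way. Cd8b1 stood at 819 ± 70.7 CPM on the CD8 side, Ccr7 at 962 ± 154 CPM on the CD4 side and 1260 ± 196 CPM on the CD8 side, and Lef1 at 480 ± 52.5 and 579 ± 49.5 CPM. The thresholds cut through a continuous range. Of the CD4 cells, 2659 had a single Cd4 UMI, and of the CD8 cells 156 had exactly 2 Cd8 UMIs. Just outside lay 4805 cells without a coreceptor UMI, 286 with a single Cd8 UMI, 198 with both coreceptors, and 873 CD4 and 49 CD8 cells without Ccr7 and Lef1. Nkg7, a granule membrane gene, stood at 404 CPM in the pooled CD8 cells with more than 2 Cd8 UMIs, 234 CPM in those with 2, 103 CPM in the cells with a single Cd8 UMI that were left out and 10.3 CPM in CD4 cells. In the cells without a coreceptor UMI it stood at 9.93 CPM. There Cd40lg (CD40 ligand) stood at 181 CPM, nearer the 196 CPM of pooled CD4 cells than the 10.4 CPM of pooled CD8 cells. Il17a, of the cytokine interleukin-17A, stood at 972 CPM in the excluded CD4 cells without Ccr7 and Lef1, against 93.5 CPM in those kept.

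The word resting fits the selected cells in part. Genes of lists for interleukin-17-producing (type 17), follicular helper and regulatory T cells were detected with at least 1 UMI in 1871 CD4 cells (46.6%) and 420 CD8 cells (31.6%), in a range of 42.9% to 56.5% and 26.5% to 44.6% over libraries. Of 10 type 17 and follicular genes 8 could be tested and 8 were higher on the CD4 side, as were 7 of 7 tested Treg genes among 9. Summed levels of the whole lists ran from 150 to 510 CPM in CD4 against 18.3 to 170 CPM in CD8 libraries for the first list and from 479 to 551 CPM against 121 to 261 CPM for the second. Il17a was detected in 102 CD4 cells (2.54%), and 90.1% of its CD4 UMIs lay in the top 1% of cells. Of 10 myeloid and 10 gamma delta or innate-like markers none passed the filter on low counts, while 2 of 7 B cell markers and 1 of 8 epithelial and stromal markers did. Both B cell markers were higher in CD8, namely Cd79b, at 0.758 ± 0.674 CPM in CD4 and 8.06 ± 3.48 CPM in CD8 (log2 -3.15 ± 0.38), and Ighm (log2 -0.30 ± 0.09, not called without combination replicate 1, at -0.25). The third, Pecam1 of the epithelial and stromal list, was higher in CD4, at 42.7 ± 2.63 against 27.9 ± 4.02 CPM (log2 0.62 ± 0.12). Which cell type its UMIs came from was not tested. Summed myeloid markers reached 6.50 to 70.9 CPM in CD4 and 2.39 to 51.7 CPM in CD8 libraries, and B cell markers 43.4 to 395 CPM and 40.6 to 89.1 CPM. A single CD4 cell of the S. chamaejasme library held 964 of the 1132 UMIs of Jchain, an antibody-joining protein of plasma cells, in that side. Since cells with these transcripts were more frequent on the CD4 side, the comparison was also run without every cell that had a UMI of those 2 lists, an alternative added after the data were seen and called the effector-free set here.

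Between the sides, 2244 of 8640 genes tested (26%) passed an adjusted p of 0.05 in edgeR's quasi-likelihood test with the library as a block, 1148 higher in CD4 (13.3%) and 1096 higher in CD8 (12.7%). Levels of the 5 libraries did not overlap between the sides for 870 genes (10.1%). The median log2 difference over all genes tested was -0.01. In the effector-free set 1259 of 7138 genes tested passed (17.6%), 628 higher in CD4 (8.8%) and 631 higher in CD8 (8.84%), of which 1029 were also called in the whole set and 11 of these had turned direction. The 1029 were 45.9% of the 2244, where genes not tested in the effector-free set count as not shared. This is the share to set beside the counts of list members that kept their call below. In bulk sums of this kind, fewer cells with a transcript and less of it per cell cannot be told apart.

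Zbtb7b and Runx3, the opposing lineage regulators, differed in opposite directions. Zbtb7b (chromosome 3, 89377644 to 89394776, minus strand, GRCm38) stood at 9.17, 15.3, 20.5, 20.2 and 19.3 CPM in CD4 cells and at 0, 0.968, 0, 1.23 and 0.763 CPM in CD8 cells. All 5 CD4 values lay above all CD8 values, with 422 UMIs against 6, and the log2 difference was 4.45 ± 0.34 (SE, adjusted p = 1.77e-13). It depended on the CD8 threshold and was 2.80 with cells of a single Cd8 UMI admitted to the CD8 side. Runx3 (chromosome 4, 135120652 to 135177990, plus strand) was present on both sides, at 108, 83.0, 63.8, 73.3 and 69.7 CPM in CD4 and 203, 156, 139, 126 and 141 CPM in CD8 cells. Its log2 difference of -0.94 ± 0.07 was smaller in size than that of Zbtb7b, without overlap between the sides.

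Of 24 tested members among 25 lineage transcription factors, 14 were higher in CD4 and 5 higher in CD8, with a median log2 difference of 0.27. Runx1, a partner of the same family, stood at 152 ± 15.1 CPM in CD4 and 55.4 ± 13 CPM in CD8 (log2 1.37 ± 0.08). Gata3, which acts upstream of ThPOK in the thymus, stood at 53.4, 67.3, 49.4, 57.4 and 56.2 CPM in CD4 and 16.7, 29.0, 17.4, 27.5 and 22.9 CPM in CD8 cells (log2 1.24 ± 0.11), and the sides did not overlap. Tox, needed for CD4 lineage development, was higher in CD4 by 1.16 ± 0.09 on the log2 scale. Eomes, a T-box factor of memory CD8 cells, stood at 2.15 ± 1.24 CPM in CD4 and 22.04 ± 8.55 CPM in CD8 (log2 -3.35 ± 0.22). The naive-cell factors Tcf7, Satb1 and Bach2 were higher in CD4 by only 0.23 ± 0.06, 0.24 ± 0.05 and 0.33 ± 0.09 with overlapping levels. Foxp1, Id2 and the Runx partner Cbfb did not pass (log2 -0.04 ± 0.06, -0.07 ± 0.06 and -0.18 ± 0.09). In the effector-free set Zbtb7b, Runx1, Gata3, Tox, Runx3 and Eomes kept their calls and directions, at 4.89, 1.29, 1.01, 0.92, -0.95 and -4.27. Nfatc1 and Myb turned there, from 0.58 ± 0.09 to -0.43 and from 0.37 ± 0.13 to -0.77, and of the 19 called members 13 kept call and direction. Myb also lost its call without untreated replicate 2, the S. chamaejasme library, combination replicate 1 or combination replicate 2 (0.32 to 0.45), and Bach2 without combination replicate 1 (0.25).

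TCR genes and gene models with Gm or Rik names were left out before any genes were named. The genes with the 10 lowest and 10 highest log2 differences among the other called genes with a mean of at least 20 CPM on one side were named by rule. On the CD8 side they were Ly6c2, Nkg7, Ly6a, Klrd1, Plac8, Tmem108, Adgrg5, Rcn3, Ccr9 and Racgap1, with log2 differences from -6.85 to -3.38. On the CD4 side they were St8sia6, Cd40lg, Tnfsf11, Il17f, Esm1, Il17a, Asb2, Tnfrsf4, Tbc1d4 and Tox2, from 4.81 to 3.21. Levels of each of the 20 did not overlap between the sides. Il17f was detected in only 57 CD4 cells (1.42%), with 96.6% of its CD4 UMIs in the top 1% of cells. A single CD4 cell held 91 of its 174 UMIs in combination 1, and another held 76 of 112 in combination 2. The 10 CD8 genes kept their direction and call in the effector-free set, and so did St8sia6, Cd40lg, Tnfrsf4 and Tbc1d4, while the 6 others of the CD4 side could not be tested there. Single libraries moved some of these values by over 1.5 times, as for Il17a (3.70 ± 0.23, and 4.84 without untreated replicate 2), Asb2 (3.57 ± 0.31, and 4.45 without the S. chamaejasme library) and Esm1 (3.76 ± 0.28, and 4.68 without combination replicate 2). With cells of a single Cd8 UMI admitted, St8sia6, Cd40lg and Il17a stood at 2.73, 2.63 and 3.01.

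**Figure D1:**
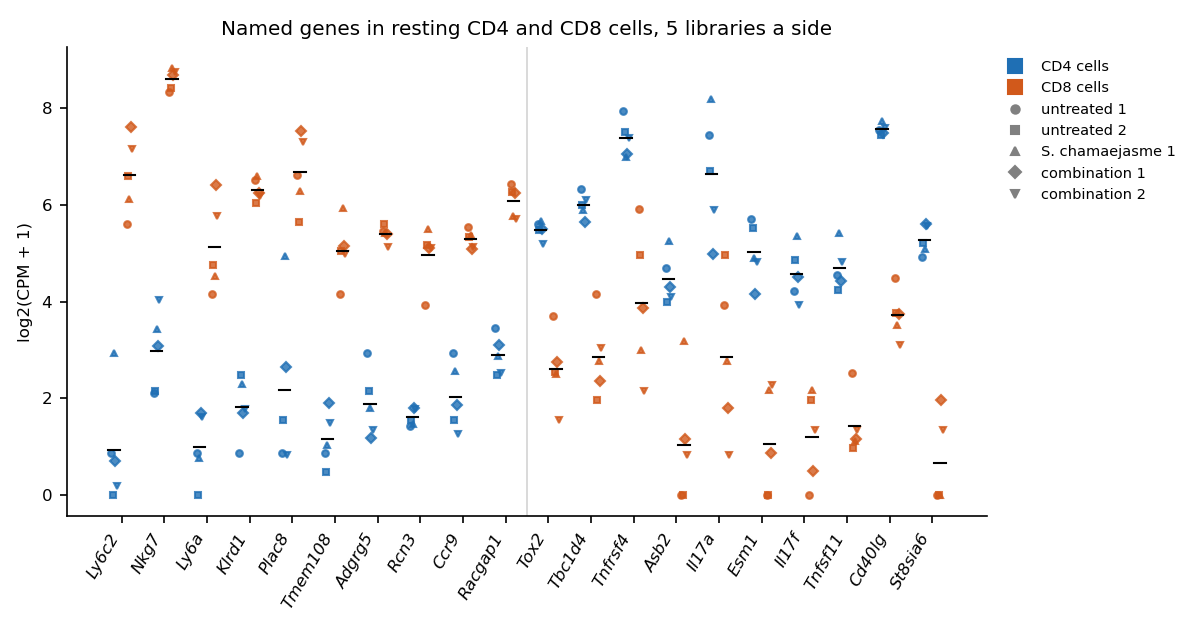
Levels of the 20 genes named by rule as log2(CPM + 1), with CD4 cells in blue, CD8 cells in orange, 1 symbol per library and a line at the mean of each side. For each gene the 5 points of one side lie apart from the 5 of the other, as for Nkg7 with 3.33 to 15.5 CPM in CD4 against 323 to 453 CPM in CD8.

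Genes of cytotoxic cells and NK receptors were mostly higher on the CD8 side although cells with Ccl5 had been left out. Of 12 tested members among 20 listed, 8 were higher in CD8 and 2 in CD4, with a median log2 difference of -1.42. Nkg7 (chromosome 7, 43437073 to 43438249, plus strand), needed for granule release, stood at 3.33, 3.44, 9.87, 7.48 and 15.5 CPM in CD4 and 323, 340, 453, 415 and 431 CPM in CD8 cells (log2 -5.41 ± 0.11, adjusted p = 1.01e-30). It had a UMI in 74.1% of CD8 and 1.69% of CD4 cells, at median depths of 5588 and 5010.5 UMIs. With each cell thinned to 2000 UMIs, which left 1314 and 3960 cells, the shares were 47.4% and 0.884%. Klrd1, which encodes the NK receptor subunit CD94, stood at 79.4 ± 13.1 against 2.80 ± 1.47 CPM (log2 -4.78 ± 0.16), and Ctsw, a cathepsin of killer cells, at 339 ± 58.1 against 40.8 ± 12.5 CPM (log2 -2.97 ± 0.08). Crtam, Prf1 (perforin) and Cst7 differed by -2.75 ± 0.19, -1.48 ± 0.16 and -1.01 ± 0.11. Of the 8, 6 kept their call in the effector-free set and 2 could not be tested, with Nkg7 at -7.65, Cst7 at -2.29 and Prf1 at -0.80. Gzma and Ifng did not pass (0.38 ± 0.35 and 0.28 ± 0.33).

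Granzyme B went against the list. Gzmb stood at 10.8, 201, 29.97, 3.86 and 0.768 CPM in CD4 and at 23.9, 9.68, 16.3, 8.21 and 4.58 CPM in CD8 cells, with CD4 higher in 2 of 5 libraries and the sides overlapping. Its called difference of 1.66 ± 0.40 rested on untreated replicate 2, where 1 CD4 cell held 465 of 526 UMIs, and was -0.50 without that library. Xcl1, a chemokine that attracts cross-presenting dendritic cells, was higher in CD8 by 2.14 on the log2 scale (log2 -2.14 ± 0.46), and by more without combination replicate 2 (log2 -5.47), where 1 CD4 cell held 116 of 136 UMIs. The other member higher in CD4 was Fasl, the ligand of a death receptor, at 9.97 ± 2.15 against 4.35 ± 2.03 CPM (log2 1.60 ± 0.29).

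Surface genes known from naive and memory CD8 cells were all on the CD8 side. Of the 9 listed, 8 were tested and 8 were higher in CD8, with a median of -1.96. Ly6c2 (chromosome 15, 75108158 to 75111970, minus strand), of the Ly6C antigen, stood at 0.834, 0, 6.70, 0.623 and 0.128 CPM in CD4 and 47.8, 95.8, 68.6, 195 and 143 CPM in CD8 cells. Its log2 difference was -6.85 ± 0.27, with -8.59 without the S. chamaejasme library, -6.13 without combination replicate 1 and -6.24 without combination replicate 2. Reads of its near-identical neighbour Ly6c1, which had 3 UMIs in CD4 and 33 in CD8 cells, may have been split between both by the counting. Ly6a, which encodes Sca-1, stood at 16.7, 26.1, 22.1, 83.8 and 53.8 CPM in CD8 and at no more than 2.24 CPM in any CD4 library (log2 -5.04 ± 0.20). The gut-homing receptor Ccr9, the integrin chain Itgae (CD103) and Cd7 differed by -3.73 ± 0.21, -2.29 ± 0.23 and -1.63 ± 0.11 without overlap. Dapl1 and the interleukin-2 receptor chain Il2rb differed by -1.14 ± 0.07 and -0.83 ± 0.10 with overlap. Of the 8, 7 kept their call in the effector-free set and 1, Cxcr3, could not be tested, but several values moved, to -8.01 for Ly6c2, -5.79 for Ly6a, -5.24 for Ccr9, -5.00 for Itgae, -3.14 for Il2rb and -0.53 for Dapl1. Plac8 stood at 113 ± 56.4 CPM in CD8 and 7.74 ± 12.6 CPM in CD4, where 84 of the 85 UMIs of the S. chamaejasme library came from 1 cell, and its difference was -4.43 ± 0.30, -5.76 without that library and -3.72 without combination replicate 2.

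Helper genes were higher on the CD4 side. Of 14 listed and tested, 11 were higher in CD4, with a median of 1.74 over the list, and Il6ra, Slamf6 and Il21r did not pass (0.15 ± 0.09, 0.04 ± 0.08 and -0.13 ± 0.06). Cd40lg (chromosome X, 57212143 to 57224042, plus strand) stood at 187, 173, 214, 180 and 192 CPM in CD4 and 21.5, 12.6, 10.5, 12.3 and 7.63 CPM in CD8 cells, and differed by 4.08 ± 0.12. The CD4 values spanned 173 to 214 CPM over all 3 groups, and a UMI was present in 47.3% of CD4 and 3.77% of CD8 cells. Tnfrsf4, the costimulatory receptor OX40, stood at 246, 180, 126, 132 and 166 CPM against 59.8, 30.01, 6.97, 13.5 and 3.43 CPM (log2 3.44 ± 0.18). Izumo1r, the folate receptor FR4, differed by 3.08 ± 0.10, Tnfsf8 (CD30 ligand) by 2.07 ± 0.09, the inhibitory receptor Ctla4 by 1.81 ± 0.09, Icos by 1.67 ± 0.07 and Cd28 by 0.74 ± 0.06. In the effector-free set Icos stood at 0.23 (adjusted p = 0.177) and Tnfsf8 at 0.29 (adjusted p = 0.118), whereas Cd40lg, Tnfrsf4, Izumo1r and Cd28 were called there at 4.66, 3.80, 1.88 and 0.51. Slamf6 was called there as higher in CD8 (-0.50, adjusted p = 0.00113) and Il6ra as higher in CD4 (0.55, adjusted p = 2.07e-05). In all, 5 of the 11 kept their call, 2 lost it and 4 could not be tested, among them Ctla4, which belongs to the lists that define that set. Pdcd1 (PD-1) reached 23.2 ± 13.7 CPM in CD4 and 4.04 ± 1.92 CPM in CD8 cells, a log2 difference of 2.75 ± 0.21. St8sia6, a sialyltransferase (chromosome 2, 13651021 to 13794064, minus strand), led the genes named for the CD4 side, at 29.2, 35.9, 32.8, 47.4 and 46.4 CPM against 0, 0, 0, 2.87 and 1.53 CPM (log2 4.81 ± 0.25, and 5.56 without combination replicate 1).

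Among 24 genes of proximal TCR signalling, all tested, 12 were higher in CD4 and 6 in CD8 (median 0.15). Cd5, a negative regulator (chromosome 19, 10717116 to 10739002, minus strand) whose level is known to follow the strength of self-recognition, stood at 200, 244, 224, 246 and 245 CPM in CD4 and 38.2, 93.9, 101, 100 and 98.8 CPM in CD8 cells. No CD8 library reached a CD4 library, and the log2 difference was 1.35 ± 0.08, or 1.08 in the effector-free set. Its relative Cd6, the adhesion receptor Cd2, the exchange factor Rasgrp1 and the adaptor Lcp2 (SLP-76) were higher in CD4 by 0.99 ± 0.08, 0.71 ± 0.05, 0.70 ± 0.08 and 0.59 ± 0.07. Ptpn6 (the phosphatase SHP-1), Themis, Grap2 and Ptpn22 were higher in CD8, with log2 values of -0.44 ± 0.09, -0.44 ± 0.09, -0.35 ± 0.06 and -0.30 ± 0.08. The first 3 lost their calls in the effector-free set (-0.19, -0.25 and -0.06, adjusted p = 0.225, 0.11 and 0.62), where Ptpn22 stood at -1.03, and Ptpn22 lost its call without untreated replicate 2 (-0.21) or combination replicate 1 (-0.26). Of the 12 members higher in CD4, 9 kept their call in that set, Cd6, Cd2, Rasgrp1 and Lcp2 at 0.66, 0.69, 0.41 and 0.46. The kinase Lck and the receptor chain genes Cd3e, Cd3g and Trac did not pass, at log2 -0.07 ± 0.05, 0.04 ± 0.04, 0.11 ± 0.05 and 0.13 ± 0.06. Trbc1 and Trbc2, near-identical constant segments whose reads the counting could split, differed by -0.43 ± 0.09 and 0.18 ± 0.05.

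Immediate early and activation genes, which a TCR signal or tissue handling can induce, split in both directions. Of 21 tested, 13 were higher in CD4 and 5 in CD8 (median 0.40). Nr4a1, the orphan receptor Nur77 and a common reporter of TCR signals, stood at 485, 434, 580, 506 and 434 CPM in CD4 and 330, 349, 292, 231 and 256 CPM in CD8 cells (log2 0.79 ± 0.07). Nr4a3, Rel, Junb and Tnfaip3 followed at 0.95 ± 0.11, 0.79 ± 0.08, 0.50 ± 0.03 and 0.48 ± 0.05. On the other side, Myc, a driver of growth, stood at 98.4, 142, 97.0, 106 and 88.7 CPM in CD4 and 194, 305, 210, 171 and 197 CPM in CD8 cells (log2 -0.99 ± 0.07), without overlap. The phosphatase Dusp2 and Nr4a2 were also higher in CD8, at -0.89 ± 0.07 and -0.49 ± 0.09. Egr1, Egr2 and Cd69 did not pass (0.06 ± 0.09, 0.63 ± 0.30 and -0.08 ± 0.06). Of the 13 and 5, 11 and 3 kept their call in the effector-free set, Rel lost it (0.21, adjusted p = 0.175), Nr4a3 stood at 0.46, and Ier2 turned from -0.16 ± 0.05 to 0.16. Ier2 also lost its call without combination replicate 1 (-0.15) or combination replicate 2 (-0.09). Heat shock genes, which dissociation of tissue also induces, moved beside these: 6 of 11 were higher in CD4 and 2 in CD8 (median 0.22), with Hspa1a and its near-identical copy Hspa1b at 0.74 ± 0.06 and 0.66 ± 0.06. Their part in the difference of immediate early genes was not tested.

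Components of MHC class I presentation were higher in CD8 cells by small amounts. Of 16 tested, 14 were higher in CD8 and 1, Calr, in CD4 (median -0.27). The immunoproteasome subunit Psmb8 stood at 223, 235, 265, 301 and 289 CPM in CD4 and 327, 315, 387, 393 and 369 CPM in CD8 cells (log2 -0.43 ± 0.05). Psmb10 and the peptide-loading chaperone Tapbp differed by -0.70 ± 0.09 and -0.61 ± 0.08, the transporter Tap1 by -0.26 ± 0.08, the class I activator Nlrc5 by -0.36 ± 0.11 and the light chain B2m by -0.20 ± 0.04. H2-Q6 and H2-Q7, which share sequence, differed by -0.36 ± 0.06 and -0.39 ± 0.06. Of 17 tested genes of the type I interferon response among 20, 8 were higher in CD8, led by Gbp2 (-0.81 ± 0.09) and Ifi47 (-0.77 ± 0.08), and 2 were higher in CD4, Ifi27l2a (1.24 ± 0.06) and Isg15 (0.62 ± 0.08). Of the 14 class I and 8 interferon genes higher in CD8, 11 and 5 kept their call in the effector-free set, while Tap1 (-0.23), Calr (0.19) and Isg15 (-0.14) lost theirs. Tap1 also lost its call without untreated replicate 2, combination replicate 1 or combination replicate 2 (-0.27 to -0.22), Calr without the S. chamaejasme library or combination replicate 2 (0.17 and 0.22), and Nlrc5 without combination replicate 2 (-0.36).

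Homing and quiescence genes went both ways, with 6 of 20 higher in CD4 and 7 in CD8 (median 0.00). Klf2, a transcription factor that drives expression of S1pr1, differed by -0.39 ± 0.04 and the interleukin-7 receptor Il7r by -0.37 ± 0.05. Both lost their call in the effector-free set, at 0.00 and -0.01, as did 5 of the 7 members higher in CD8 in all, while 5 of the 6 higher in CD4 kept theirs. Igfbp4 was higher in CD4 by 0.76 ± 0.07 and by 1.399 in that set. The sphingosine receptor S1pr1, which lets cells leave tissue, stood at 0.11 ± 0.06 and did not pass, and was higher in CD4 by 0.60 in the effector-free set.

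Receptors and signalling genes of cytokines also went both ways. Of 20 tested receptors among 24, 6 were higher in CD4 and 5 in CD8 (median 0.08), with Il2ra at 2.25 ± 0.36 and Tgfbr2 at 0.24 ± 0.07 for CD4 and Il27ra at -0.38 ± 0.07 for CD8. Tgfbr2 lost its call without combination replicate 1 (0.21). Of 18 tested signalling genes among 19, 8 were higher in CD4 and 4 in CD8 (median 0.21). Cish, a feedback inhibitor induced by STAT5, the kinase Pim1 and Stat5b were higher in CD4 by 1.60 ± 0.13, 1.03 ± 0.05 and 0.73 ± 0.07, and by 1.83, 1.21 and 0.79 in the effector-free set. Jak2 differed by 1.62 ± 0.12 and by 0.53 (adjusted p = 0.074) in that set. Integrin and cytoskeleton genes were higher in CD4 for 8 of 19 and in CD8 for 4, with S100a4 and Lgals1, of memory and effector cells, at 2.38 ± 0.23 and 1.29 ± 0.09, and S100a10 turned from 0.33 ± 0.06 to -0.22 in the effector-free set.

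**Figure D2:**
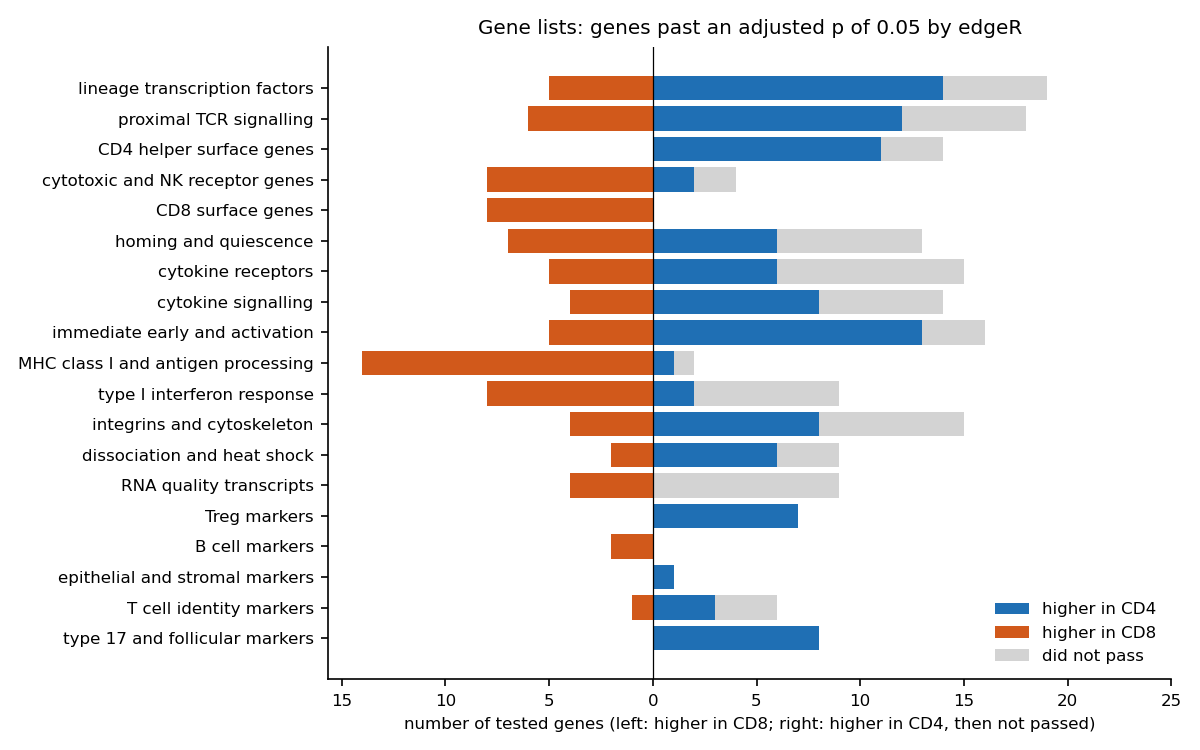
Number of tested genes of each list, with those higher in CD8 to the left of the line and those higher in CD4, followed by those that did not pass, to the right. The CD8 surface list had 8 of 8 genes on the CD8 side, the helper list 11 of 14 on the CD4 side and the homing list 6 and 7 of 20.

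Whether the CD4 to CD8 difference changed with treatment was tested as an interaction, the difference in the 2 combination libraries minus that in the 2 untreated ones, with 2 residual degrees of freedom. Of 8640 genes 21 passed (0.243%), against 549 at an unadjusted p under 0.05, and DESeq2 called 0. Il22, a cytokine acting on epithelium, stood at 182, 67.7, 53.2, 14.0 and 17.7 CPM in CD4 and 110, 24.2, 32.5, 0 and 0 CPM in CD8 cells. In CD8 cells its 71 UMIs of the untreated libraries came from 4 and 2 cells, and the absence in the combination made the untreated level at least 82.3-fold higher (floor of 3 counts, summed over both combination libraries). Iltifb, a near-identical copy of Il22, was also called, but not without untreated replicate 1, combination replicate 1 or combination replicate 2 (5.94 to 6.999). The called gene with the highest counts was Gm42418, one of the RNA quality transcripts described further down (214927 UMIs in CD4 and 93992 in CD8). It stood at 14250, 20904, 6629, 7381 and 8338 CPM in CD4 and 12697, 23466, 6353, 12154 and 11201 CPM in CD8 cells, and its difference moved towards CD8 (-0.57 ± 0.09). It lost its call without combination replicate 1 (-0.42) and in cells of 2000 to 6000 UMIs (-0.36). Igfbp4 (0.76 ± 0.11), Nr4a1 (0.54 ± 0.12) and Fos (0.50 ± 0.09) moved towards CD4. Igfbp4 lost its call without untreated replicate 2 (0.49), Nr4a1 without that library (0.39), without combination replicate 1 (0.36) or in the effector-free set (0.54), and Fos without combination replicate 1 (0.47) or combination replicate 2 (0.57). Igfbp4 stood at 465, 619, 1282, 1119 and 913 CPM in CD4 and 306, 534, 868, 491 and 460 CPM in CD8 cells. Receptor V genes, left out of the naming by rule, were also among the 21. They were Trav6-7-dv9 (2.28 ± 0.32), Trav8n-2 (2.54 ± 0.57), Trbv15 (-2.86 ± 0.54) and Trbv13-3 (-0.90 ± 0.19). Leaving out untreated replicate 2 gave 46 calls and leaving out combination replicate 2 gave 12.

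On the CD4 side, 337 of 9483 genes tested (3.55%) differed between combination and untreated, 89 higher (0.939%) and 248 lower (2.62%) in the combination. Leaving out untreated replicate 1 or 2 gave 1187 or 876 calls and leaving out combination replicate 1 or 2 gave 148 or 142. Igfbp4 rose from 542 ± 109 to 1016 ± 146 CPM (SD, n = 2 and 2, log2 0.90 ± 0.15). Of the list of integrins and cytoskeleton 7 of 19 fell in edgeR's test (median -0.27). Among these 7, S100a4 fell by 1.78 on the log2 scale, from 38.0 ± 3.04 to 11.2 ± 0.0629 CPM, Ahnak by 1.78 (from 67.5 ± 9.47 to 19.0 ± 0.812 CPM), Crip1 by 1.30 and Lgals1 by 0.99. Median UMIs per CD4 cell were 3914.5 and 4457 in the untreated and 5465 and 5361 in the combination libraries. In cells of 2000 to 6000 UMIs Igfbp4 (0.37), S100a4 (-0.71), Il23r (-2.62) and Bcap29 (0.80) lost their calls and Pdcd1 stood at 3.34, and in the effector-free set Lgals1 (-0.49) and Bcap29 (1.04) lost theirs. Of 10 type 17 and follicular markers 4 fell, namely Il22, Il23r, Il21 and Il17a, with log2 values of -2.83 ± 0.35, -2.44 ± 0.54, -1.68 ± 0.23 and -1.57 ± 0.28. Pdcd1 rose, at 4.17 and 14.5 CPM in the untreated, 27.5 in the S. chamaejasme and 31.4 and 38.3 CPM in the combination libraries (log2 1.66 ± 0.29, or 3.07 without untreated replicate 2). Gzmb fell by 5.71 ± 0.86, a value set by the CD4 cell of untreated replicate 2 named above, and by 2.19 without that library (log2 -2.19). Of the other genes named by rule, Lilr4b, Lmna and Sytl3 fell with log2 values of -2.78 ± 0.38, -2.07 ± 0.26 and -2.04 ± 0.34, while Tgtp2, Sidt1, Bcap29 and Pigp rose by 1.22 ± 0.28, 1.15 ± 0.15, 1.01 ± 0.22 and 0.93 ± 0.18. Il23r lost its call without combination replicate 1 (-2.87) or combination replicate 2 (-2.15), Tgtp2 without combination replicate 1 (0.96) and Bcap29 without combination replicate 2 (0.92). Without untreated replicate 1 the values were -2.09 for Il22, -2.14 for Lilr4b and -1.34 for Sytl3, and without untreated replicate 2 they were -3.51, -3.46 and -2.73.

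On the CD8 side, with fewer UMIs, 62 of 7856 genes (0.789%) differed, 11 higher (0.14%) and 51 lower (0.649%) in the combination. Without untreated replicate 1 or 2 there were 236 or 336 calls, and without combination replicate 1 or 2 there were 33 or 29. Plac8, Ly6a and Ly6c2, which marked the CD8 side above, rose by 1.41 ± 0.21, 1.57 ± 0.30 and 1.09 ± 0.22. Median UMIs per CD8 cell were 4555 and 4834 in the untreated and 6179 and 6025.5 in the combination libraries, and in cells of 2000 to 6000 UMIs these 3 genes lost their calls, at 0.50, 1.05 and 0.77, as did Ms4a4c (1.92) and Tnfrsf4 (-1.44), both described next, while Cdkn1a stood at -3.25. Ly6a stood at 16.7 and 26.1 CPM in the untreated, 22.1 in the S. chamaejasme and 83.8 and 53.8 CPM in the combination libraries, and lost its call without combination replicate 1, while Plac8 stood at 0.83 without untreated replicate 2. Ms4a4c rose by 1.78 ± 0.38 (3.54 without untreated replicate 2) and the nucleic acid sensor Zbp1 by 1.09 ± 0.22. Tnfrsf4, Il17a and Cdkn1a fell, with log2 values of -2.22 ± 0.45, -3.88 ± 0.60 and -1.85 ± 0.40, and S100a6 stood at -1.86 ± 0.42 but at -0.08 without untreated replicate 2 and -1.44 without combination replicate 1, not called in either. Il17a lost its call without that library, at -3.09, Cdkn1a without untreated replicate 1, at -1.36, and Ly6c2 without combination replicate 1, at 0.90. Zbp1 lost its call without untreated replicate 2, combination replicate 1 or combination replicate 2, with 0.97 to 1.10, and in the effector-free set (0.96), where Cdkn1a lost its call too (-1.08). Ly6c2 stood at 1.84 and Cdkn1a at -2.56 without untreated replicate 2, and Tnfrsf4 at -3.51 without combination replicate 1 and -1.57 without combination replicate 2. Few CD8 cells held the untreated UMIs of Tnfrsf4 and Il17a. For Tnfrsf4 there were 25 UMIs in 3 cells of untreated replicate 1, 21 of them in 1 cell, and 31 UMIs in 8 cells of untreated replicate 2. For Il17a there were 6 UMIs in 3 cells and 31 UMIs in 3 cells.

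Transcripts linked to RNA quality moved with treatment on both sides. Of 13 such transcripts, 4 fell in CD4 (Lars2, mt-Nd3, Gm42418 and AY036118, by 1.41, 1.34, 1.15 and 1.67 on the log2 scale) and 3 fell in CD8 (Lars2, mt-Nd3 and AY036118, by 1.37, 1.24 and 1.54), where mt-Nd3 lost its call without combination replicate 2 (-1.08). The lone S. chamaejasme library lay below the combination means for these, with AY036118 at 714 CPM in CD4 cells against 1048 ± 280 CPM in the combination and 3342 ± 1122 CPM in the untreated libraries. Their part in the treatment results was not tested. Between the CD4 and CD8 sides of the same libraries, 4 of these 13 were higher in CD8, among them AY036118 with a log2 difference of -0.23 ± 0.05. These 4 lost their calls in the effector-free set, AY036118 at 0.02 (adjusted p = 0.83), and 2 others, Malat1 and mt-Atp6, were higher in CD4, by 0.10 and 0.16.

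**Figure D3:**
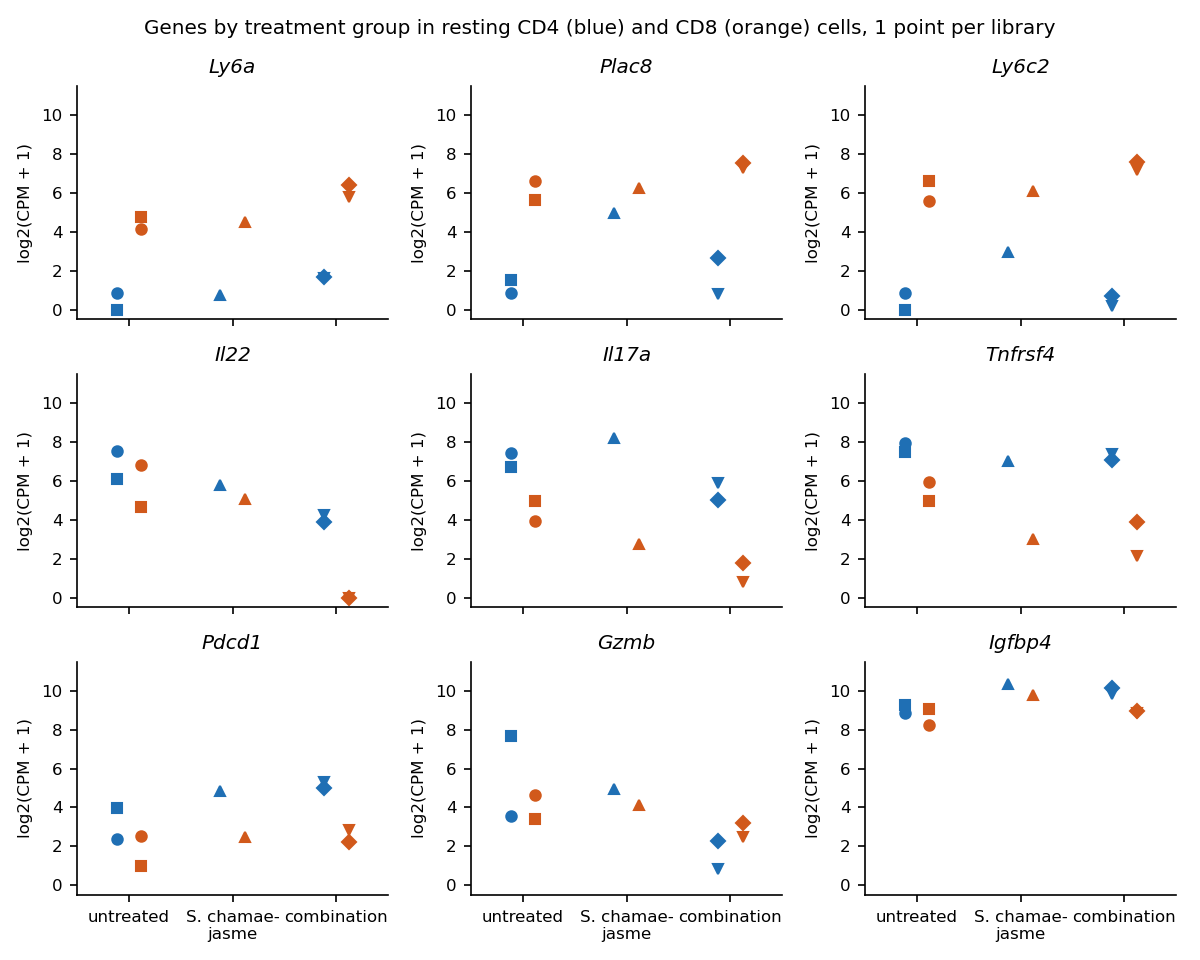
Levels of 9 genes as log2(CPM + 1) by treatment group, with CD4 cells in blue, CD8 cells in orange and 1 symbol per library. Pdcd1 in CD4 and Ly6a in CD8 cells lie higher in the 2 combination than in the 2 untreated libraries, and Il22 lies at 0 in both combination libraries of CD8 cells.

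The TCR libraries gave a readout that the rule had not used apart from the presence of a TRB chain. For beta V segments (TRBV), 7 of 17 with at least 20 cells (41.2%) differed in use, 3 higher in CD4 (17.6%) and 4 in CD8 (23.5%). TRBV20 (chromosome 6, 41188273 to 41188977, plus strand) was used by 9.92%, 11.7%, 10.9%, 10.2% and 10.3% of CD4 cells and by 3.61%, 4.13%, 4.97%, 3.43% and 3.42% of CD8 cells. The sides did not overlap, and the log2 difference was 1.48 ± 0.13 (edgeR, adjusted p = 2.41e-07). TRBV31, which lies alone and inverted downstream of the constant segments (chromosome 6, 41557691 to 41558452, minus strand), was used by 11.1% ± 0.977 of CD4 and 5.01% ± 1.42 of CD8 cells (log2 1.25 ± 0.14), and TRBV5 by 9.67% ± 2.05 and 6.31% ± 1.80 (log2 0.62 ± 0.12). Higher in CD8 were TRBV14 (1.64% ± 0.256 in CD4 against 4.46% ± 1.29), TRBV29 (3.88% ± 2.13 against 8.91% ± 3.14) and TRBV13-3 (4.998% ± 1.45 against 9.46% ± 1.17), with log2 values of -1.25 ± 0.28, -1.11 ± 0.23 and -0.93 ± 0.14. The seventh, reported by the contigs under the joined name TRBV12-2+TRBV13-2, stood at -0.41 ± 0.11 and lost its call without combination replicate 1 or combination replicate 2.

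Among alpha V segments (TRAV) 10 of 50 differed (20%), 7 higher in CD4 (14%) and 3 in CD8 (6%), and 4 were called without combination replicate 2. TRAV16N was used by 1.38%, 2.73%, 2.22%, 2.08% and 2.69% of CD4 and 8.82%, 6.70%, 6.33%, 7.16% and 7.83% of CD8 cells with an alpha chain (log2 -1.62 ± 0.24). TRAV2 and TRAV6-6 were also higher in CD8 (-2.65 ± 0.48 and -0.76 ± 0.14). TRAV14D-3-DV8 was used by 2.86% ± 0.291 of CD4 and 0.741% ± 0.549 of CD8 cells (log2 1.71 ± 0.45), with TRAV14N-3, TRAV4-2 and TRAV21-DV12 at 1.65 ± 0.48, 1.54 ± 0.46 and 1.43 ± 0.51. Calls of TRAV16N, TRAV2, TRAV6-6 and TRAV14D-3-DV8 held when any 1 library was left out, and the 4 left without combination replicate 2 were these. Mouse TRAV segments exist in near-identical copies, marked D and N in their names, between which contigs may be misassigned. For J segments, 0 of 12 TRBJ (0%) and 1 of 40 TRAJ (2.5%) passed in edgeR, and 6 and 6 were below an unadjusted p of 0.05. The TRBJ segments with an adjusted p of 0.0557 were TRBJ1-3, TRBJ1-5, TRBJ1-6 and TRBJ2-2, more used in CD4, and TRBJ1-1 and TRBJ2-7, more used in CD8. TRBJ calls numbered 0 to 6 when a library was left out, with 6 without combination replicate 1 and 3 without the S. chamaejasme library. TRAJ27 (log2 1.28 ± 0.29) lost its call without untreated replicate 2, the S. chamaejasme library or combination replicate 2.

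The RNA libraries hold reads of V segments from the same cells, so their values are not independent of the contigs. Of the 17 called V segments 16 could be matched to a tested gene, 15 had the same direction and 14 were also called there. Trbv20 differed by 1.64 ± 0.09 in RNA (114 ± 20.3 against 36.9 ± 9.33 CPM), Trbv31 by 1.17 ± 0.14 and Trav16n by -1.25 ± 0.12. Trbv29 differed by -0.52 ± 0.13, less than in the contigs. Trav6-6 had another direction (0.27 ± 0.31) without passing, at 5.32 ± 3.12 and 4.53 ± 1.65 CPM.

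**Figure D4:**
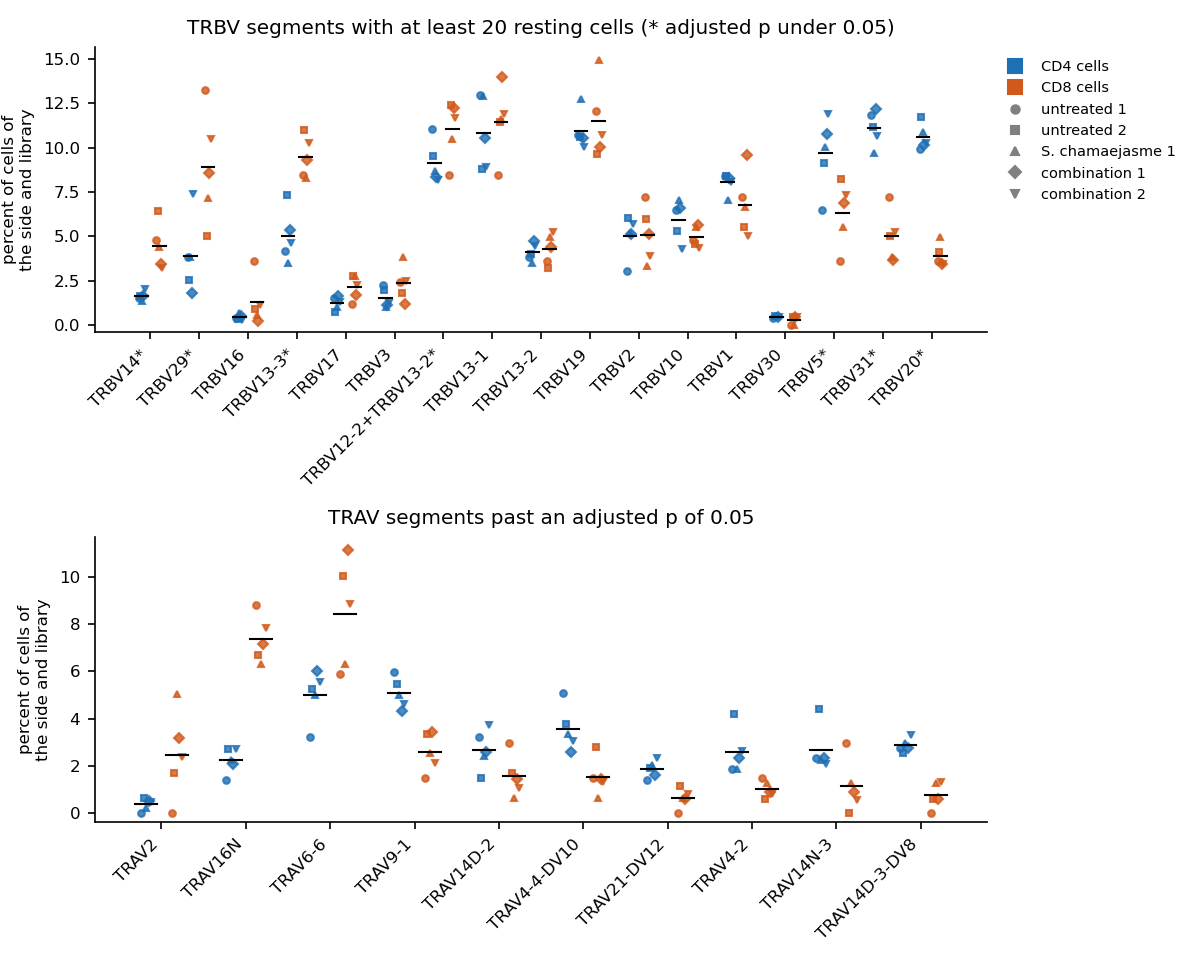
Percent of cells of a side and library that used each tested TRBV segment (top, an asterisk marks those that passed) and each TRAV segment that passed (bottom), with CD4 in blue, CD8 in orange, 1 symbol per library and a line at the mean. TRBV20 lies at 9.92% to 11.7% in CD4 against 3.42% to 4.97% in CD8, and TRAV16N at 1.38% to 2.73% against 6.33% to 8.82%.

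CDR3 loops were less negative on the CD4 side for beta and more positive for alpha. Net charge was counted as lysine and arginine residues minus aspartate and glutamate residues over the whole CDR3. For TRB its mean was -0.48, -0.58, -0.56, -0.62 and -0.58 in CD4 and -0.90, -0.98, -1.06, -0.995 and -0.96 in CD8 cells. All CD4 values lay above all CD8 values, and the difference was 0.41 ± 0.05 charges (SD over 5 libraries). An exact two-sided sign-flip permutation over 5 libraries gave p = 0.0625, the smallest it can give, and 0.0817 after Benjamini-Hochberg adjustment over the 17 values tested, so no value of this family can pass 0.05. Both kinds of residue contributed, with 1.21 ± 0.0316 acidic residues per CDR3 in CD4 against 1.48 ± 0.0126 in CD8 and 0.647 ± 0.0246 basic residues against 0.498 ± 0.0573. A charge of -1 was the most frequent on both sides, with 39.0% of CD4 and 39.1% of CD8 cells. A charge of -2 was carried by 14.2% of CD4 and 25.1% of CD8 cells, and a charge of 1 by 11.6% and 6.10%.

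The charge difference was recomputed with segment use set equal, over the segments found on both sides of a library. Cells with other segments were left out of it. Some segment means rested on few cells, as on the CD8 side of untreated replicate 1 with its 83 cells. With TRBV use set equal on both sides the TRB difference was 0.37 ± 0.05, and with TRBJ use set equal 0.29 ± 0.08. Single segments with at least 30 cells on each side were compared with the cells of all libraries pooled, without a test. CD4 cells had the higher mean charge in 13 of 13 TRBV and 11 of 11 TRBJ segments, by 0.149 to 0.652 and 0.119 to 0.561 charges. TRBV20, which often brings the arginine shown above, had a mean of -0.02 in 421 CD4 and -0.38 in 50 CD8 cells, and TRBV5 a mean of -0.93 in 422 CD4 and -1.16 in 91 CD8 cells. For TRA the mean charge was 0.747 ± 0.0503 in CD4 and 0.499 ± 0.0447 in CD8 (difference 0.25 ± 0.03, higher in CD4 in 5 of 5 libraries, exact p = 0.0625). It was 0.26 ± 0.03 with TRAV use and 0.13 ± 0.05 with TRAJ use set equal. With libraries pooled, 12 of 13 TRAV and 16 of 18 TRAJ segments had the higher mean in CD4. TRA loops differed more in acidic residues (0.446 ± 0.0471 against 0.629 ± 0.0280) than in basic ones (1.19 ± 0.0324 against 1.13 ± 0.0442). The charge differences in the effector-free set were 0.394 for TRB and 0.258 for TRA, in the same direction in each of the 5 libraries.

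**Figure D5:**
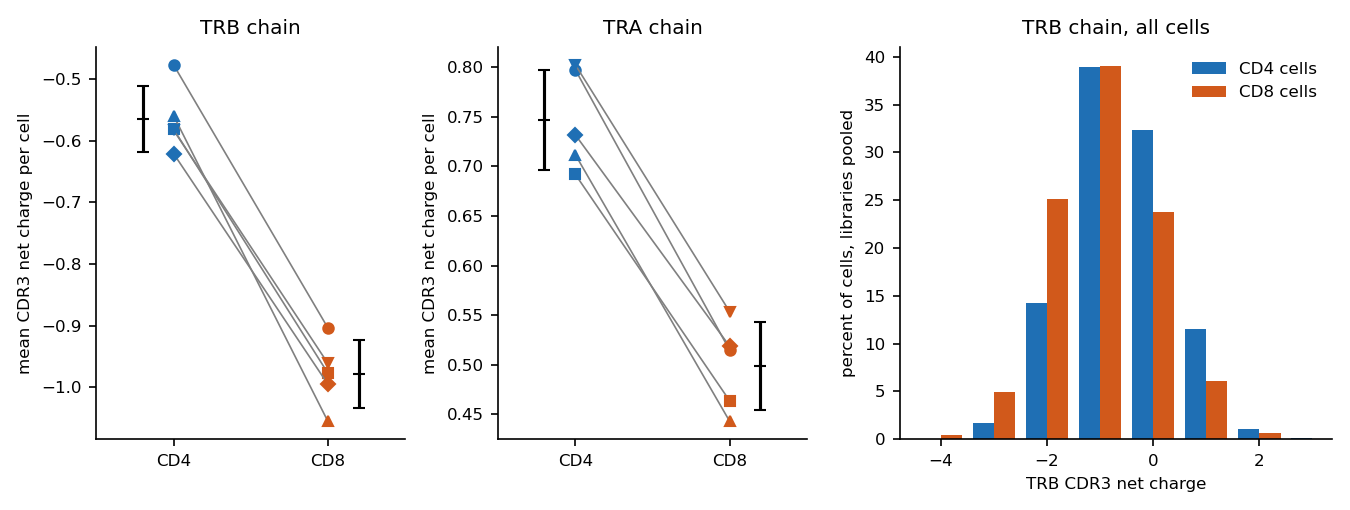
Mean net charge of the TRB (left) and TRA (middle) CDR3 per library, with the CD4 and CD8 value of a library joined by a line and bars for the mean ± SD of 5 libraries, and the percent of pooled cells at each TRB charge (right). Each line falls from CD4 to CD8, for TRB from between -0.62 and -0.48 to between -1.06 and -0.90.

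CDR3 length differed less. TRB loops averaged 14.0 ± 0.0625 residues in CD4 and 13.8 ± 0.0641 in CD8, longer in CD4 in 5 of 5 libraries by 0.115 ± 0.0953 residues, and TRA loops 13.6 ± 0.0309 and 13.6 ± 0.110 residues, longer in CD4 in 2 of 5 (exact p = 0.4375). Clones held few of the selected cells on both sides. The 5340 cells belonged to 5282 clonotypes, of which 49 had at least 2 of these cells, 47 of them in CD4 and 2 in CD8. A clonotype held at most 4 of these cells, and 0 clonotypes held selected cells of both sides. By TRB junction and V segment within a library, 76 were found in at least 2 of these cells, and 1 of the 76 was found on both sides. Counting cells whose clonotype had at least 2 cells anywhere in the library, resting or not, 9.54%, 7.68%, 9.72%, 4.89% and 4.55% of CD4 and 3.61%, 0.917%, 1.66%, 0.980% and 1.60% of CD8 cells were in such clones (7.27% ± 2.47 against 1.75% ± 1.09, exact p = 0.0625). In the effector-free set these shares were 1.004% ± 0.757 and 0.286% ± 0.393, with CD4 higher in 4 of 5 libraries (exact p = 0.1875). The rule left out cells with Ccl5 on both sides but kept cells with UMIs of the lists that the effector-free set removes. Such cells were 46.6% of the CD4 and 31.6% of the CD8 side. How far this choice of cells set the difference in clone share was not tested. Cells with a second productive alpha chain were 11.7% ± 2.98 of CD4 and 10.6% ± 1.95 of CD8 cells with an alpha chain, a difference of 1.11 points (exact p = 0.375), and the difference was -0.30 points in the effector-free set.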

How the data were processed

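Gene expression and T cell receptor sequence were measured in single T cells of mouse colorectal carcinomas, in 5 RNA libraries and their 5 TCR libraries. The deposited RNA files hold UMI counts, not normalized, over 31053 features, which the authors made with Cell Ranger 3.1.0 and STAR on mm10, per the submitters' processing notes; no annotation release is named. The deposited TCR files list assembled contigs with read and UMI counts, per the file headers, and their annotations of segments, CDR3 and productivity were used as given.

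Cells were chosen as stated above. The members, gene lists and tests were chosen with earlier results of these data known. UMIs were summed per library and side and tested with edgeR 4.0.16 (R 4.3.3), quasi-likelihood, TMM, low counts filtered by filterByExpr, library as a block, and Benjamini-Hochberg adjustment over all genes tested at 0.05. Both sides of a library come from the same sample, which is the source of the pairing, and accession order alone numbered the replicates. The interaction used the block too; treatment was tested on each side with all 3 groups in the fit. Segment use was tested in the same way on cell counts, for segments with at least 20 cells. Values per library were compared with exact two-sided sign-flip permutations, which cannot go below 0.0625. Named genes were the called ones with the largest changes, the same direction in all 5 libraries (between the sides) and a mean of at least 20 CPM, 10 per direction between the sides and 5 for interaction and treatment. TCR segment and constant genes and gene models with Gm or Rik names were left out before this naming. DESeq2 1.42.0, other scalings, filters, UMI thresholds of the coreceptors, cell sets and each library left out were alternatives. Tested on simulated data, the fit recovered 91.5% of 200 genes changed by 1 on the log2 scale among 8640, with 7 false calls of 190; the same change was recovered in 75.5% of 200 genes in the treatment test of the CD4 side, 51% in that of the CD8 side and 37.5% in the interaction, and a change of 2 in 70% of 10 segments. In the simulation all libraries had the same underlying levels, with a spread taken from the library-blocked fit. Differences between libraries, which enter the treatment tests run without a block, were thus not simulated. Segments were drawn with counting spread alone. Recovery and false calls in the real data may therefore be worse than these shares. Coordinates are from GENCODE on GRCm38, for 268 of 268 genes looked up. A few genes of the lists are counted but their values are not reported here. Python 3.11.15 was used for counting cells and sequences.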

Additional observations from a re-analysis of the deposited data

Results flagged for a closer look

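For 10 of the 21 genes called in the interaction, named by rule, the CD4 minus CD8 log2 difference in the combination minus that in untreated libraries is given here (edgeR, adjusted p under 0.05). DESeq2 called none of them. In cells of 2000 to 6000 UMIs 7 of the 10 lost their calls, with Ctla2a at -1.34, Atp2b1 at -1.28, Ahnak at -0.19, Ptms at 0.38, Tnfrsf4 at 1.30, Il17a at 1.76 and Il22 at 4.83. Rgs1 kept its call there, and Gzmb and Xcl1 could not be tested. Atp2b1 (-1.18), Ahnak (-1.20), Rgs1 (-0.68) and Ptms (1.30) lost theirs in the effector-free set. There the value of Tnfrsf4 changed sign, to -0.14, Ctla2a kept its call, and Gzmb, Il17a, Il22 and Xcl1 could not be tested. Gzmb stood at -4.83 ± 0.71 (-0.33 and not called without untreated replicate 2). Ctla2a stood at -1.88 ± 0.30 (-0.91 and not called without untreated replicate 2). Atp2b1, a calcium pump, stood at -1.18 ± 0.26, with 80.0 and 87.6 CPM in untreated against 48.0 and 55.0 CPM in combination CD4 cells, and lost its call without untreated replicate 2 (-1.09) or combination replicate 1 (-0.92). Ahnak stood at -1.11 ± 0.23 and lost its call without untreated replicate 1 (-0.94) or combination replicate 2 (-0.97). Rgs1 stood at -0.65 ± 0.13, with 548 and 471 CPM in untreated against 279 and 297 CPM in combination CD4 cells, and lost its call without untreated replicate 2 (-0.41), combination replicate 1 (-0.56) or combination replicate 2 (-0.70). Ptms stood at 1.33 ± 0.30 and lost its call without untreated replicate 1 (0.91) or combination replicate 2 (1.26). Tnfrsf4 stood at 1.79 ± 0.38, lost its call without untreated replicate 1 (1.57) or combination replicate 2 (0.93), and stood at 3.22 without combination replicate 1. Il17a stood at 2.502 ± 0.56, lost its call without untreated replicate 2 (1.21) or combination replicate 2 (1.32), and stood at 3.87 without combination replicate 1. The untreated CD8 UMIs of Tnfrsf4 and Il17a came from the few cells described above. Il22 stood at 7.53 ± 1.04, a fitted value against combination CD8 libraries at 0 UMIs, and kept its call without any 1 library. Xcl1 stood at 8.54 ± 1.95, with untreated CD4 libraries at 0 UMIs, and lost its call without untreated replicate 1 (7.68) or combination replicate 2 (4.16), the library in which 1 CD4 cell held 116 of 136 UMIs.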

How the results depend on the processing

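Of the values recomputed for whole comparisons, 182 kept their direction and side of the threshold or stayed within 1.5 times, 30 moved and 1 reversed; of those for single genes and segments, 2426 kept both, 244 lost the call and 12 reversed. The 2244 genes called between the sides became 1264 with DESeq2, 1470 in cells of 2000 to 6000 UMIs, 1482 with Ccr7 and Lef1 both detected, 729 within untreated libraries and 2102 within combination libraries. Added after seeing the data, the effector-free set gave 1259. Without the replicate block, which pairs the sides of a library, 1147 were called and 1147 of them were among the 2244; TRBV calls then numbered 7, TRAV 12, TRBJ 7 in place of 0 and TRAJ 1. The interaction calls became 0 with DESeq2, 6 in the depth window and 12 to 46 with 1 library left out. Treatment calls in CD4 cells became 96 with DESeq2, 177 with no filter, 162 in the effector-free set and 142 to 1187 with 1 library left out, and in CD8 cells 10, 167 with no filter, and 29 to 336. With 1 library left out TRAV calls were 4 to 11, TRBJ 0 to 6 and TRAJ 0 to 1; the spread of a group left with 1 library was taken from the other groups. Gzmb between the sides reversed to -0.15 with DESeq2, -1.50 within combination libraries and -0.50 without untreated replicate 2 (-0.50 to 2.09 with 1 library left out), and its treatment value in CD4 cells to 0.14 in the depth window. With the effector-free set, Tnfrsf4 in the interaction reversed to -0.14 and the share of cells with 2 alpha chains to -0.30. Between the sides, Nfatc1 turned to -0.43, Myb to -0.77, Ier2 to 0.16 and S100a10 to -0.22 in that set, each called there. Isg15 at -0.14, AY036118 at 0.0242 and Klf2 at 0.000101 also changed sign but were not called there, so their differences were lost, not turned. Where no value bears on it, the cause was not tested. The CD8 side of untreated replicate 1 held 410093 UMIs, the fewest of the summed sides.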
